A study of Mus musculus with 50 samples.

Results

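Gastrocnemius muscle of 22-month-old male mice was compared with that of 8-month-old mice, 8 animals in each group, which is 16 of the 50 mice of an age series that also holds 18, 24, 26 and 28 months. All mice were wild-type C57BL/6JRj males kept on the AIN-93M diet, a purified maintenance diet for adult rodents. Per the study's methods, the 8- and 18-month groups were adapted to this diet for a period before dissection, whereas the groups from 22 months onward had eaten it from middle age onward, so age and time on the diet cannot be told apart between 22 and 8 months. The comparison takes the columns of the 2 ages and the 12586 genes with a level of 1 CPM (reads scaled to a fixed library total) or more in 8 or more libraries, and it asks which transcripts differ by 22 months. Animals with visible illness or tumours had been left out by the authors, which limits the old groups to mice that looked healthy.

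The gastrocnemius is a calf muscle of mainly fast fibres, and bulk RNA from it holds fibre transcripts together with those of resident fibroblasts, fat cells, vessels, nerve sheath and immune cells. Sarcopenia is the loss of muscle mass and strength with age, in which some fibres lose their nerve contact and turn on genes for acetylcholine receptor subunits and other denervation markers. Fatty acid synthesis starts from cytosolic acetyl-CoA and runs through a carboxylase, a synthase, elongases and desaturases, a chain that is most active in fat cells and liver and lower in muscle.

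The 16 libraries held between 14838672 and 20515435 counts, and the lowest and highest totals of the 2 ages overlapped. Each library's median correlation with the others lay between 0.981 and 0.989 over the tested genes, and the lowest value belonged to replicate 3 at 8 months. All 10 markers of skeletal muscle fibres were tested, with a median log2 fold change of 0.04 and a summed level of 146565 to 171578 TPM (reads scaled by transcript length and library total) at 8 months and 152663 to 180338 TPM at 22 months. Pairs of libraries of 1 age differed by 2.94 to 22.3 times the variance that counting alone gives, so none was treated as a duplicate.

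Few single genes differed between the 2 ages. With edgeR's quasi-likelihood test at a Benjamini-Hochberg adjusted p below 0.01, 5 of the 12586 genes (0.0397%) rose by 22 months and 0 fell, while 1134 (9.01%) had an unadjusted p below 0.05, of which 554 were higher and 580 lower. By other tools the number at 0.01 was 34 with DESeq2 (30 higher, 4 lower) and 7 with limma on log2(TPM + 1). The absolute log2 fold change had a median of 0.09, and 74 genes differed by 1 or more, 54 upward and 20 downward. Neighbouring steps of the series gave 9 genes for 18 against 8 months (0.0715%), 1 for 22 against 18 months (0.00795%) and 14 for 24 against 18 months (0.111%). The step of 28 against 22 months gave 3485 (27.7%). Both of its groups were fed this diet from about the same age, so the 28-month mice had eaten it for longer. Age and time on the diet cannot be told apart in that step either. Of those 3485 genes, 2033 were higher and 1452 lower, a split that turned to 1494 higher and 1946 lower with upper-quartile scaling. With only the 2 ages of each step in the fit, the counts were 24 for 22 against 8 months, 4 for 18 against 8, 1 for 22 against 18, 25 for 24 against 18 and 1883 for 28 against 22 months. DESeq2 gave 10, 2, 34 and 3721 for the last 4 of these steps.

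The count of 5 rested on single libraries. It was 1 without replicate 2, 3, 4 or 6 at 8 months or replicate 6 at 22 months, 2 without replicate 5 at 8 months or replicate 3 at 22 months, and 3 without replicate 1 at 8 months or replicate 2 or 8 at 22 months. It was 12 without replicate 4 at 22 months. Amy1 was the gene that passed under all 25 alternative settings tried for it, and the other 4 each passed under 13 to 18 of the 25.

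Amy1 encodes the salivary-type alpha-amylase, an enzyme that cuts the alpha-1,4 bonds of starch and glycogen. Its lowest, median and highest normalized levels were 43.8, 46.2 and 65.7 CPM at 8 months and 81.7, 88.8 and 98.6 CPM at 22 months, so every older mouse stood above every younger one. The log2 fold change was 0.78 ± 0.10 (SE, adjusted p = 8.1e-06, edgeR), a ratio of 1.72. The mean was higher at each later age of the series, from 51.7 ± 9.21 CPM (SD, n = 8) at 8 months to 74.4 ± 7.77 at 18, 89.2 ± 6.08 at 22, 105 ± 15.9 at 24, 127 ± 21.7 at 26 (n = 9) and 136 ± 21.1 at 28 months (n = 9). The gene lies on chromosome 3 (113555710 to 113606699, minus strand, GRCm38). Reads could in principle be shared with its pancreatic relatives, but Amy2 stayed at or below 0.196 CPM and Amy2a1 at 0 in all 16 mice.

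Kcnab1 encodes a beta subunit of voltage-gated potassium channels, a cytoplasmic partner that speeds the inactivation of the pore-forming subunits. It stood at 6.25, 13.6 and 18.8 CPM (lowest, median, highest) at 8 months and at 15.6, 33.2 and 41.1 CPM at 22 months, with 7 of 8 older mice above the highest younger one. The log2 fold change was 1.21 ± 0.23 (adjusted p = 0.0067, edgeR). The mean was already 27.9 ± 10.9 CPM at 18 months, and it was 30.7 ± 9.10 at 22 and 30.1 ± 7.47 at 24 months. It was lower at the last 2 ages, at 25.3 ± 7.72 CPM at 26 and 17.7 ± 6.44 at 28 months. The step from 22 to 28 months had a log2 fold change of -0.80 ± 0.22 (adjusted p = 0.0033, edgeR, with the same 22-month mice in both steps). Gm38048, a transcript annotated on the same strand that overlaps Kcnab1 over 114318 bases of chromosome 3, had a log2 fold change of 1.33 ± 0.31 (adjusted p = 0.033, edgeR). Reads of the 2 may not be separable, so they were not counted as independent.

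The other 3 genes past the threshold were low in count, under the mean of 5 CPM set for naming, and were named after their values were seen. Prkcz, an atypical protein kinase C with roles in cell polarity and insulin signalling, had 1.96, 2.45 and 3.04 CPM at 8 months and 3.13, 4.68 and 5.72 CPM at 22 months. Its groups did not overlap, with a log2 fold change of 0.87 ± 0.16 (adjusted p = 0.0067, edgeR). Emb encodes embigin, a surface glycoprotein of the immunoglobulin family that pairs with monocarboxylate transporters. It had 1.95, 3.27 and 4.88 CPM at 8 months and 4.82, 5.69 and 10.4 CPM at 22 months, with 6 of 8 older mice above the highest younger mouse and a log2 fold change of 1.01 ± 0.19 (adjusted p = 0.0067, edgeR). Gm7609, annotated as a transcribed pseudogene on chromosome 1, went from 2 to 7 reads per mouse at 8 months to 7 to 25 reads at 22 months. Its groups did not overlap either (log2 fold change 2.05 ± 0.36, adjusted p = 0.0051, edgeR), but it lies among duplicated genes with which reads may be shared, so its level is uncertain. The reference the authors counted against is described as protein-coding transcripts, whereas the annotation used here lists neither Gm7609 nor Gm38048 as protein-coding, so which transcripts their values stand for is not known.

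**Figure D1:**
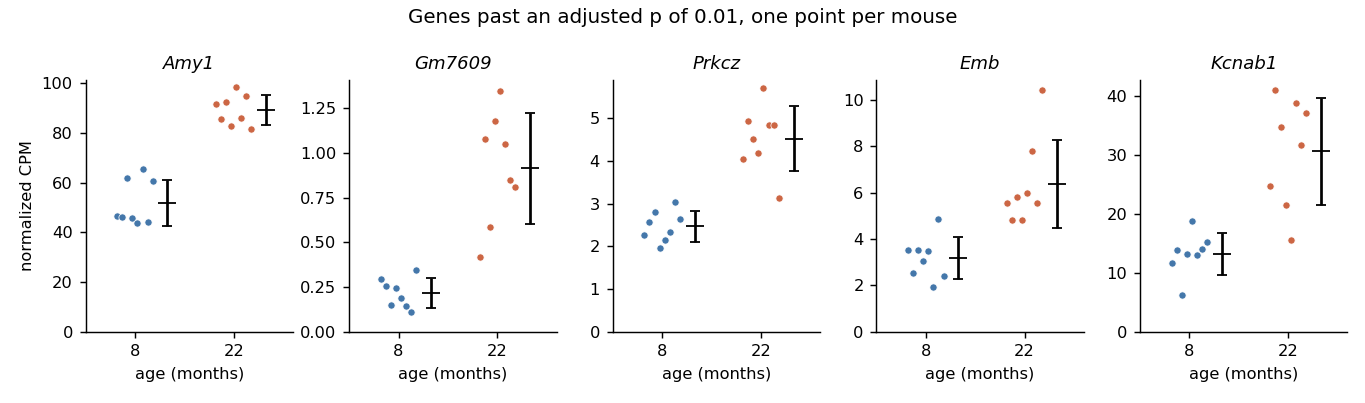
Normalized CPM (vertical axis, from 0) of the 5 genes past an adjusted p of 0.01 in each mouse at 8 months (blue) and 22 months (orange), with the mean and SD of each group as a black bar. The points of Amy1, Gm7609 and Prkcz do not overlap between ages, and those of Emb and Kcnab1 overlap at the edge.

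The 250 bases before the 2 starts that RefSeq (GRCm38.p6) gives for Amy1 are shown because this gene carried the clearest difference. Both are on the minus strand of chromosome 3 and read 5′ to 3′, with the letters TATAAA, the core of a TATA box, in capitals where either strand holds them. The first window is chr3:113577751-113578000 and the second chr3:113574763-113575012.
Amy1, first window: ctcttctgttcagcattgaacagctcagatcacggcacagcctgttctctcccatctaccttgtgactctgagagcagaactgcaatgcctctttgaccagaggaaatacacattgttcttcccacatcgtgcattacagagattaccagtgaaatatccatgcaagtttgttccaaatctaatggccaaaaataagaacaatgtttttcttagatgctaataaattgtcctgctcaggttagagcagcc
Amy1, second window: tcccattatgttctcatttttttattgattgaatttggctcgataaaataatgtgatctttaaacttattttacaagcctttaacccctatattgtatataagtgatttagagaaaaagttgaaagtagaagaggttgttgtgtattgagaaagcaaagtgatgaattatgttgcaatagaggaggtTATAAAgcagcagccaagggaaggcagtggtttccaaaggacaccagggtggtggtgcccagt
The second window held 1 match, 63 bases before its start, and the first held 0. Over all 32851 RefSeq windows of this length, 12.4% held the letters on either strand. The counts are given per gene, so which start the transcripts came from was not measured.

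Under a looser threshold, an adjusted p below 0.05 that was chosen after the data were seen, 41 genes (0.326%) differed, 34 higher (0.270%) and 7 lower (0.0556%). Their absolute log2 fold changes ran from 0.29 to 3.17 with a median of 0.85, and 14 of the 41 had a mean under 5 CPM over the 16 mice. In 16 of the 41 the ranges of the ages did not overlap (14 higher, 2 lower), as against 37 of all genes tested (0.294%), a description that uses the same values as the test. The genes below were named after their values were seen, and their adjusted p-values lay between 0.012 and 0.049 (edgeR).

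Of the 34 higher genes, 2 belong to the calcium handling list, which held 24 tested genes, 3 of them higher with an unadjusted p below 0.05 and 0 lower, and a median log2 fold change of 0.06. The first, Sln, encodes sarcolipin, a small inhibitor of the calcium pump of the sarcoplasmic reticulum. It had 0.796, 2.33 and 5.96 CPM at 8 months and 4.29, 8.63 and 22.1 CPM at 22 months, with a log2 fold change of 1.91 ± 0.42, and the 28-month mean was 55.4 ± 16.7 CPM. The 2 ages overlapped, and 5 of 8 older mice lay above the highest younger one. The other, Camk2b, the beta chain of calcium/calmodulin-dependent kinase II, did not overlap between ages, with a highest value of 200.3 CPM at 8 months and a lowest of 212 CPM at 22 months (log2 fold change 0.38 ± 0.09). Among higher genes outside that list, Adcy2, an adenylyl cyclase, had its highest 8-month value, 69.3 CPM, under its lowest 22-month value, 71.2 CPM. Erc2, a scaffold of the presynaptic active zone, had a median of 0.470 CPM at 8 months and 1.67 CPM at 22 months and reached a mean of 4.22 ± 2.06 CPM at 28 months. Eda2r, the receptor for ectodysplasin A2 in the tumour necrosis factor receptor family, had medians of 41.7 and 79.9 CPM (log2 fold change 0.90 ± 0.20). Ide, the insulin-degrading enzyme, had medians of 146 and 272 CPM, and 7 of 8 older mice exceeded the highest younger value of 181 CPM.

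Other higher genes had low counts, and a gene low at 8 months could pass the filter through the ages where it was high. Ccl8, a chemokine that draws monocytes, had 0.333, 0.983 and 3.14 CPM at 8 months and 2.20, 4.20 and 8.30 CPM at 22 months (log2 fold change 1.84 ± 0.40). Jchain, the joining chain of secreted antibodies and a plasma cell product, had 6 to 30 reads per mouse at 8 months and 29 to 145 at 22 months, and the normalized ranges did not overlap. Fcer1a, the alpha chain of the high-affinity IgE receptor of mast cells, did not overlap either, with a median of 0.231 CPM at 8 months and 0.620 CPM at 22 months. Krt8, a keratin of simple epithelia, had the highest fitted log2 fold change of the 41, 3.17 ± 0.64, on 0 to 3 reads at 8 months and 2 to 49 reads at 22 months.

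The 7 lower genes were Scd2, Acly, Thrsp, Angptl1, Msrb1, Lactb2 and Plekha3. Angptl1, a secreted angiopoietin-like protein, had 9.74, 11.5 and 14.5 CPM at 8 months and 4.90, 6.53 and 8.69 CPM at 22 months, without overlap, and its mean was 3.92 ± 1.59 CPM at 28 months. Msrb1, a selenoprotein that repairs oxidised methionine, had a median of 143 CPM at 8 months and 100.01 CPM at 22 months (log2 fold change -0.49 ± 0.12), with ranges that overlapped widely. Lactb2, a mitochondrial ribonuclease, was lower by a small margin, with medians of 28.8 and 23.8 CPM and no overlap. The first 3 belong to lipid synthesis and are described with that list.

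**Figure D2:**
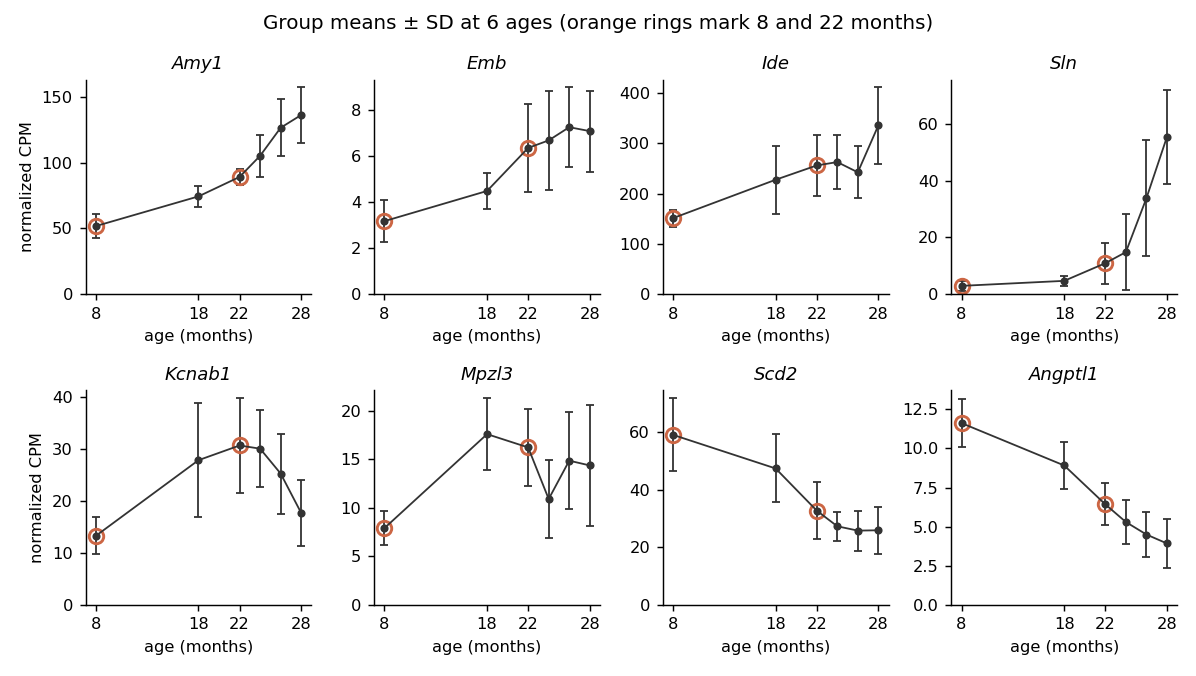
Normalized CPM (vertical axis, from 0) as group mean and SD against age in months for 8 genes named in the text (n = 8 mice at 8 to 24 months and 9 at 26 and 28 months). Amy1, Emb, Ide and Sln are highest at 26 or 28 months, Kcnab1 returns to 17.7 CPM at 28 months, Mpzl3 is highest at 18 months, and Scd2 and Angptl1 lie lowest at the last 2 ages.

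Whether these differences appear in other animals was read from the older groups against 18 months, since those 3 comparisons share no mouse with 22 against 8 months. Each of the 3 also crosses the same difference in diet history. Age and time on the diet therefore cannot be told apart in them either, here and wherever 24 against 18 months is given below. At 24 against 18 months, 35 of the 41 genes had the same sign (85.4%, beside 67.4% of all genes tested), and 17 of them had an unadjusted p below 0.05 in that direction (41.5%, beside 11.04% of all genes). The sign was the same in 30 of 41 at 26 months (73.2% beside 66.6%) and in 29 of 41 at 28 months (70.7% beside 65.8%), and 18 of the 41 passed an adjusted p of 0.01 in the same direction at 28 against 18 months (43.9% beside 27.7%, edgeR). In the opposite direction, 1, 0 and 4 of the 41 had an unadjusted p below 0.05 at 24, 26 and 28 months (edgeR). Over all 12586 genes these numbers were 288, 1108 and 1866. The 4 at 28 months were Kcnab1, Galnt17, Rasd2 and Zfp641. The 3 comparisons share their 18-month mice with one another.

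Of the 5 genes past 0.01, Amy1 was called at 24 against 18 months as well (log2 fold change 0.50 ± 0.10, adjusted p = 0.0092, edgeR). The same step gave 0.58 ± 0.19 for Emb (adjusted p = 0.16, edgeR) and 0.32 ± 0.16 for Prkcz (adjusted p = 0.37, edgeR), both positive without passing. Kcnab1 and Gm7609 had 0.11 ± 0.22 and 0.07 ± 0.31 there, and they were at 27.9 CPM and 0.870 CPM on average at 18 months, close to their 22-month means. Mpzl3, a relative of the myelin protein P0, went the other way, with a log2 fold change of 1.04 ± 0.21 for 22 against 8 months and -0.69 ± 0.21 for 24 against 18 months (unadjusted p = 0.0020, edgeR). Its 18-month mean was 17.6 ± 3.74 CPM and its 22-month mean 16.2 ± 4.0 CPM. Genes past an adjusted p of 0.05 in both steps were Amy1, Sln, Ccl8, Scd2 and Msrb1, which is 12.2% of the 41 and 11.4% of the 44 called for 24 against 18 months (0.350% of all genes).

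**Figure D3:**
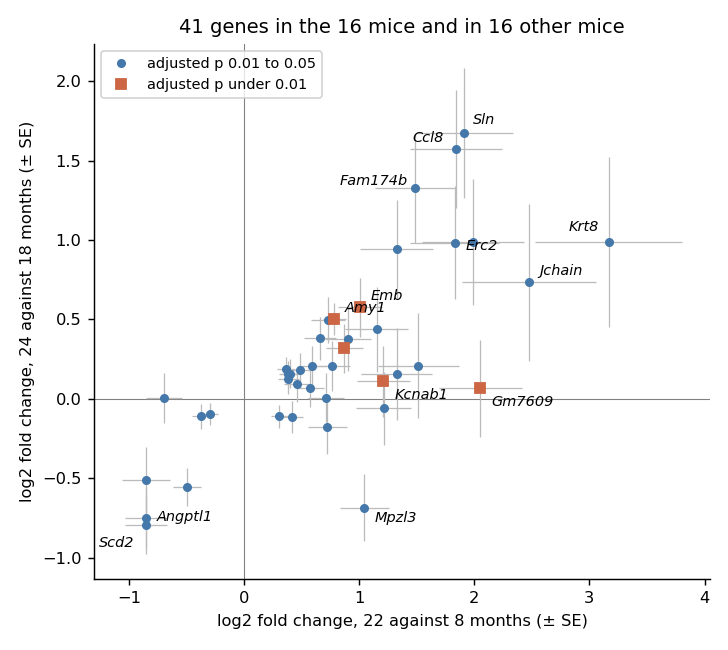
Log2 fold change for 22 against 8 months (horizontal axis) against log2 fold change for 24 against 18 months (vertical axis), in other mice, for the 41 genes with an adjusted p below 0.05 at 22 against 8 months. Grey bars are SE, squares mark the 5 genes below 0.01, and 35 of the 41 points lie in the quadrants of equal sign, with Mpzl3 the lowest of the others at -0.69.

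Over 41 pathway lists with 1090 tested genes, 0 members passed an adjusted p of 0.01 (edgeR), 112 (10.3%, beside 9.01% of all genes) had an unadjusted p below 0.05, and 7 (0.642%, beside 0.326%) had an adjusted p below 0.05. DESeq2 called 5 members at 0.01, which were Ccl8, Acly, Scd2, Eda2r and Sln. The lists are therefore described by counts at an unadjusted p below 0.05, read against 4.40% of all genes higher and 4.61% lower, and by their median log2 fold change, read against -0.01 over all genes.

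Lipid synthesis and storage held 28 tested genes, of which 25 were lower at 22 months, 9 of them with an unadjusted p below 0.05 (32.1%) and 0 higher, with a median log2 fold change of -0.17. Acly, the ATP-citrate lyase that supplies cytosolic acetyl-CoA, had 24.3, 33.9 and 61.6 CPM at 8 months and 16.4, 22.3 and 30.4 CPM at 22 months (log2 fold change -0.69 ± 0.15, adjusted p = 0.022, edgeR). Acaca, the carboxylase that makes malonyl-CoA, had medians of 45.0 and 32.1 CPM (-0.41 ± 0.16, adjusted p = 0.40, edgeR). Fasn, the fatty acid synthase, had 47.5, 104 and 169 CPM at 8 months and 15.2, 36.4 and 109 CPM at 22 months, a log2 fold change of -1.28 ± 0.40 that did not pass (adjusted p = 0.19, edgeR). Within each age Fasn was spread widely, and 5 of 8 older mice lay below the lowest younger one.

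The desaturases and the regulators of the list were lower on average too. Scd2, a stearoyl-CoA desaturase, had 44.1, 62.0 and 74.5 CPM at 8 months and 16.7, 34.2 and 46.6 CPM at 22 months, with 7 of 8 older mice below the lowest younger one (log2 fold change -0.85 ± 0.18, adjusted p = 0.017, edgeR). Its relative Scd1 had medians of 605 and 237 CPM (-1.15 ± 0.37, adjusted p = 0.24, edgeR). Thrsp, a thyroid hormone-responsive protein of lipogenic tissue, had 16.4, 21.8 and 30.7 CPM at 8 months and 8.10, 11.3 and 19.9 CPM at 22 months (-0.85 ± 0.21, adjusted p = 0.047, edgeR). Srebf1, the transcription factor that drives many of these genes, had medians of 76.2 and 61.1 CPM (-0.34 ± 0.13, adjusted p = 0.36, edgeR).

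In other mice the members differed among themselves. At 24 against 18 months Scd2 had a log2 fold change of -0.80 ± 0.18 (adjusted p = 0.027, edgeR) and Scd1 -1.43 ± 0.38 (adjusted p = 0.069, edgeR), while Acly had 0.01 ± 0.15 and Acaca -0.00 ± 0.16, and the median of the list was -0.06. Acly was at 26.7 ± 8.91 CPM at 18 months and between 21.3 and 27.1 CPM on average at every later age, and Scd2 lay between 25.8 and 27.3 CPM from 24 months on. The median of the list was -0.10 at 18 against 8 months, with the same 8-month mice.

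Fat cell markers moved in the same direction as this list. Of 12 adipocyte markers, all tested and none at 0, 11 were lower, 4 with an unadjusted p below 0.05 (Scd1, which is on both lists, Pck1, Adipoq and Cidec), and the median log2 fold change was -0.60. That count was between 1 and 9 when single mice were left out, with 1 without replicate 8 at 8 months, 2 without replicate 7 at 8 months or replicate 1, 3, 6 or 8 at 22 months, 8 without replicate 7 and 9 without replicate 4 at 22 months. Adipoq, the fat cell hormone adiponectin, had 11.8, 24.5 and 36.4 CPM at 8 months and 3.59, 15.3 and 28.7 CPM at 22 months (log2 fold change -0.64 ± 0.28, adjusted p = 0.46, edgeR). The median of the markers was -0.07 at 18 against 8 months and -1.02 at 24 against 18 months. The summed level of the markers was 2425 to 3563 TPM at 8 months and 2058 to 3419 TPM at 22 months, which overlapped. At 8 months Scd1 had 111 to 326 TPM and Pck1 5.17 to 37.2 TPM, so the sum rests largely on other members. One member, Fabp4, is also on the endothelial list, and the sum was not read as a level of fat cells alone. Fewer cells of a type and less RNA per cell cannot be told apart in bulk muscle, and the part of fat cells in the lipid synthesis values was not tested.

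**Figure D4:**
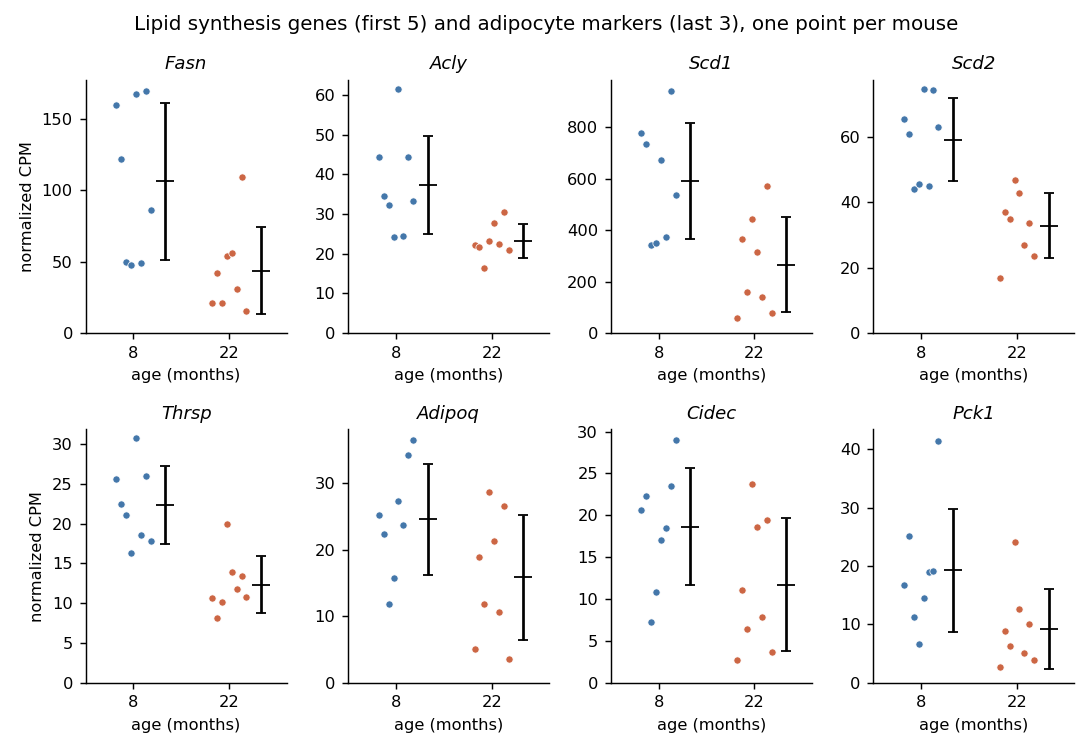
Normalized CPM (vertical axis, from 0) of 5 lipid synthesis genes and 3 adipocyte markers in each mouse at 8 months (blue) and 22 months (orange), with the mean and SD of each group as a black bar. The older mice lie lower on average in all 8 panels, and every panel has overlapping ranges.

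Upstream windows of 250 bases from RefSeq (GRCm38.p6) are shown for 3 members of this list, Acly, Fasn and Thrsp, whose medians were lower at 22 months, although Fasn did not pass. All are on the minus strand and read 5′ to 3′, at chr11:100528001-100528250, chr11:120824548-120824797 and chr7:97417551-97417800. Capitals mark GGGCGG, the core of a GC box, in Acly and CCAAT, the CCAAT box, in Fasn and Thrsp, on either strand.
Acly: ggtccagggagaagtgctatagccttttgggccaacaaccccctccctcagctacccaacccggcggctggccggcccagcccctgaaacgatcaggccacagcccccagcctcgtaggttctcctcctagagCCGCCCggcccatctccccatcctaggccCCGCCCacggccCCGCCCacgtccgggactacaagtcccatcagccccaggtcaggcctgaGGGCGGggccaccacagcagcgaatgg
Fasn: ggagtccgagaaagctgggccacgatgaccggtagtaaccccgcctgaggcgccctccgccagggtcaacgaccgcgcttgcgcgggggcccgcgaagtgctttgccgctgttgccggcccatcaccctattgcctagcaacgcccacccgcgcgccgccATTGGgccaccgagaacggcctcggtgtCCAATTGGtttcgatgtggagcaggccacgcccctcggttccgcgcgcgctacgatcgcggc
Thrsp: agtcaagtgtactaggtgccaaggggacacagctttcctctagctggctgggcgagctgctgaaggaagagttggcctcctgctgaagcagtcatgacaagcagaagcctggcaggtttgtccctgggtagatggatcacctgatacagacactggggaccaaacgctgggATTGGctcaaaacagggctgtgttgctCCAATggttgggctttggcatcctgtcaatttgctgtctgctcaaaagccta
Acly held 4 matches to GGGCGG, found in 32.7% of all windows. Fasn held 3 matches to CCAAT, of which 2 overlap on opposite strands, and Thrsp held 2, beside 33.8% of all windows with at least 1. The G and C share was 68.8% for Acly, 69.2% for Fasn and 53.6% for Thrsp, beside a median of 52.4%.

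Extracellular matrix genes were mostly lower. Of 34 tested collagens, 27 were lower, 7 with an unadjusted p below 0.05 (20.6%) and 0 higher, and the median log2 fold change was -0.31. The collagen median was already -0.25 at 18 against 8 months, with the same 8-month mice, and was -0.05 at 22 against 18 months. Col3a1, a fibril-forming collagen of elastic tissue, had 145, 208 and 227 CPM at 8 months and 94.6, 119 and 174 CPM at 22 months (-0.68 ± 0.30, adjusted p = 0.47, edgeR), with 6 of 8 older mice below the lowest younger one. Col1a2, a chain of the main tendon and bone collagen, had medians of 212 and 133 CPM. Of 25 genes for collagen processing and cross-linking, 5 were lower with an unadjusted p below 0.05 and 1 higher, and Serpinh1, a chaperone of procollagen, had medians of 66.0 and 48.1 CPM (-0.57 ± 0.18, adjusted p = 0.20, edgeR). Eln, the elastic fibre protein elastin, had medians of 23.3 and 11.4 CPM (-0.79 ± 0.21, adjusted p = 0.080, edgeR) but was back at a mean of 20.7 ± 7.49 CPM at 28 months. The collagen count ran from 5 to 12 when single mice were left out, with 12 without replicate 5 at 22 months, 11 without replicate 3 at 8 months and 5 without replicate 1, 4 or 8 at 8 months or replicate 2, 6 or 8 at 22 months. Without replicate 8 at 8 months the median was -0.18.

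All 12 fibroblast markers were tested and lower, 6 of them with an unadjusted p below 0.05 and a median log2 fold change of -0.36. The list shares Col1a2 and Col3a1 with the collagens and includes Pdgfra, Dpt, Cd34 and Gsn. Its summed level was 1919 to 2903 TPM at 8 months and 1817 to 2573 TPM at 22 months, with none at 0. Gsn alone had 947 to 1608 TPM at 8 months and 878 to 1349 TPM at 22 months, so the sum rests largely on 1 gene. The part of fibroblast number in the collagen values was not tested. At 24 against 18 months the medians were -0.18 for the collagens and -0.50 for the fibroblast markers. The fibroblast median was -0.13 at 18 against 8 months and -0.21 at 22 against 18 months.

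The denervation response list, genes that a fibre raises after loss of its nerve, had 20 tested members, 16 of them higher and 6 with an unadjusted p below 0.05, with a median log2 fold change of 0.23. Sln, already described, was the member past an adjusted p of 0.05. Gdf5, also among the 6, had 0 to 4 reads per mouse at 8 months. At 22 months it had 48 reads in replicate 6 and at most 11 in any other mouse. Ankrd1, a stress-responsive titin partner, had 5.27, 7.28 and 20.3 CPM at 8 months and 9.22, 19.5 and 34.9 CPM at 22 months (1.15 ± 0.31, adjusted p = 0.086, edgeR). Chrna1, the alpha subunit of the muscle acetylcholine receptor, had 15.1, 17.6 and 22.1 CPM at 8 months and 21.6, 23.7 and 30.7 CPM at 22 months, with 7 of 8 older mice above the highest younger one (0.50 ± 0.15, adjusted p = 0.16, edgeR). Runx1, a transcription factor of denervated muscle, had medians of 3.22 and 4.95 CPM. The median of the list was 0.18 at 18 against 8 months, with the same 8-month mice. At 24 against 18 months the median of the list was 0.51, and Chrna1 passed there with 0.79 ± 0.15 (adjusted p = 0.0052, edgeR). The count stayed between 5 and 7 when any 1 of the 16 mice was left out. The list of acetylcholine receptor and neuromuscular junction genes, which shares Chrna1 with the denervation list, had 18 tested members, 10 higher and 8 lower. Of these, 2 were higher with an unadjusted p below 0.05 (11.1%) and 0 lower, and the median log2 fold change was 0.03.

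Immune lists tended upward at 22 against 8 months. Their medians at 24 against 18 months were 0.01 for macrophages, 0.02 for neutrophils and mast cells, 0.02 for complement and -0.09 for antigen presentation. At 18 against 8 months, with the same 8-month mice, these medians were 0.29, 0.21, 0.16 and 0.25. Of 17 macrophage markers, 16 were higher and 6 had an unadjusted p below 0.05 (35.3%), with a median log2 fold change of 0.34 and a summed level of 215 to 367 TPM at 8 months and 292 to 472 TPM at 22 months. Their count was 11 without replicate 1 at 8 months, 3 without replicate 5 at 8 months or replicate 2 or 6 at 22 months, and 2 without replicate 6 at 8 months or replicate 5 at 22 months. Mpeg1, the pore-forming perforin-2 of macrophages, had medians of 6.80 and 12.7 CPM (0.72 ± 0.27, adjusted p = 0.35, edgeR). All 7 tested neutrophil and mast cell markers of 10 were higher, 4 with an unadjusted p below 0.05. The filter limits this count, since a marker low at 8 months could pass it through the ages where it was high. The untested markers fell under the filter. Counts were low at 8 months, with 9 to 21 reads per mouse for Csf3r, 4 to 22 for S100a8 and 6 to 22 for S100a9. S100a9, a calcium-binding protein abundant in neutrophils, had 0.298, 0.726 and 1.08 CPM at 8 months and 0.643, 4.01 and 6.52 CPM at 22 months (2.32 ± 0.69, adjusted p = 0.16, edgeR), and it was called at 24 against 18 months (3.14 ± 0.63, adjusted p = 0.0081, edgeR). These cells can sit in tissue or in blood left in the vessels, which was not tested, and the 6 tested erythroid markers had a median log2 fold change of -0.11.

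Complement had 4 of 20 genes higher with an unadjusted p below 0.05 and a median of 0.22. Among them C4b, whose reads can be shared with its near-identical copy C4a, had medians of 34.0 and 52.5 CPM. C4a had 6 to 49 reads per mouse at 8 months and 25 to 58 at 22 months, so the 4 may not be independent. C6, another complement gene, had only 0 to 11 reads at 8 months and 6 to 19 at 22 months. Antigen presentation had 21 of 23 genes higher and 4 below an unadjusted p of 0.05. H2-Eb1, a class II chain, had medians of 20.5 and 32.9 CPM (0.59 ± 0.22, adjusted p = 0.35, edgeR). Interferon-stimulated genes had a median of 0.23 at 22 against 8 months, of 0.55 at 18 against 8 months and of -0.43 at 24 against 18 months. Irf7, an interferon regulatory factor, had a median of 3.24 CPM at 8 months and 6.39 CPM at 22 months, and its 18-month mean was 16.2 ± 23.2 CPM, an SD above the mean.

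Mitochondrial lists had small negative medians whose counts moved with single mice. All 37 complex I subunits were lower at 22 months, 5 with an unadjusted p below 0.05 (13.5%), with a median log2 fold change of -0.14. Of 78 mitochondrial ribosomal proteins, 74 were lower and 13 had an unadjusted p below 0.05 (16.7%), with a median of -0.11. Without replicate 3 at 8 months, the library with the lowest correlation to the others, these counts became 0 and 2 and the medians -0.06 and -0.04. Without replicate 8 at 8 months they became 13 and 24, without replicate 1 at 22 months 2 and 5, and without replicate 2 at 22 months 2 and 6. The complex I count also moved to 2 without replicate 1 and 10 without replicate 2 at 8 months. It was 3 without replicate 6 at 8 months or replicate 3 at 22 months, and 8 without replicate 6 or 7 at 22 months. The count of mitochondrial ribosomal proteins was 17 without replicate 2 at 8 months and 16 without replicate 6 at 22 months. It was 10 without replicate 5 or 6 at 8 months or replicate 3 at 22 months. Ndufs4, an accessory subunit of complex I, reached 309 CPM in replicate 3 at 8 months, beside 216 CPM in the next highest. Its 8-month median was 214 CPM and its 22-month median 181 CPM (log2 fold change -0.29 ± 0.11, adjusted p = 0.34, edgeR). Of 45 tested subunits of complexes II, III, IV and ATP synthase, 44 were lower, 3 with an unadjusted p below 0.05 (6.67%), with a median of -0.14. That count ran from 1 to 11 when single mice were left out. At 24 against 18 months the medians were -0.14 for complex I, -0.11 for mitochondrial ribosomal proteins and -0.10 for the other complexes.

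Several other processes gave counts under or near the background. Proteasome subunits, the circadian clock, fatty acid uptake and oxidation, glycogen metabolism, metallothioneins, IL-6 family signalling, slow fibre genes and Hox genes had 0 members with an unadjusted p below 0.05 in either direction. Atrophy ubiquitin ligases and FoxO genes had 1 of 19, and cytosolic ribosomal proteins 1 of 78. The slow fibre list, with a median of 0.10 here, had 0.85 at 24 against 18 months.

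**Figure D5:**
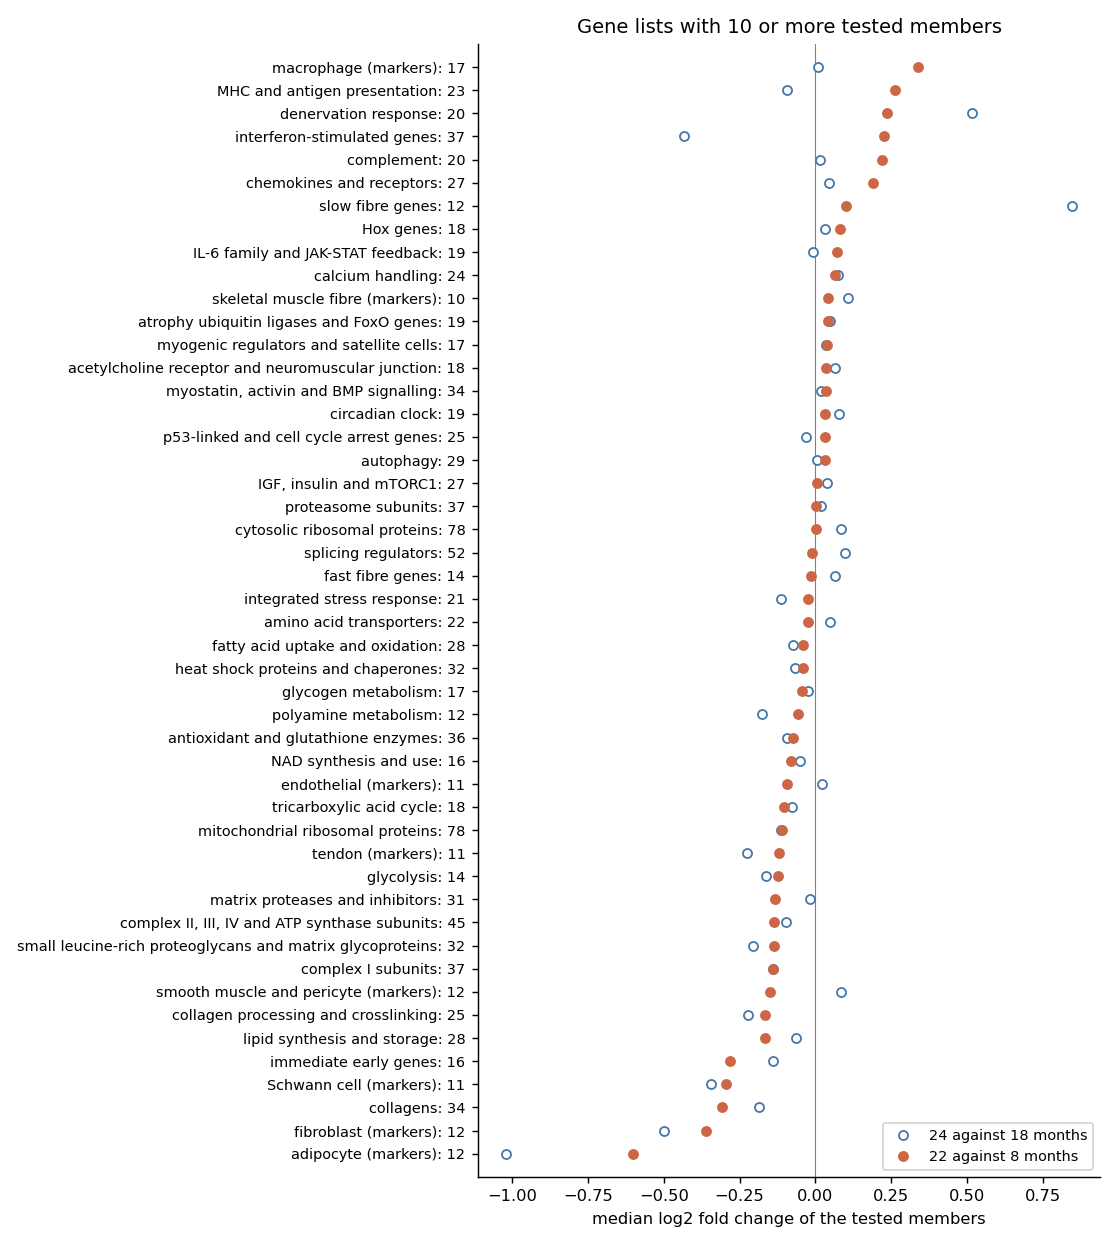
Median log2 fold change (horizontal axis) of the tested members of each gene list with 10 or more of them, for 22 against 8 months (filled orange) and for 24 against 18 months in other mice (open blue), with the number of members after each name. Adipocyte markers lie lowest at -0.60 and macrophage markers highest at 0.34 for 22 against 8 months, and interferon-stimulated genes have opposite signs in the 2 comparisons.

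Transcription factors that the study linked to ageing muscle were measured by their own transcripts. Of 10 such factors, 9 were tested and 0 passed, and Nr5a2 fell under the filter on low counts. Esrra, a nuclear receptor for mitochondrial genes, had a log2 fold change of -0.10, with an interval of 2 SE either side from -0.42 to 0.22. Ppargc1a, the coactivator of mitochondrial biogenesis, had -0.40 (-1.10 to 0.30), Ppara -0.32 (-0.92 to 0.28) and Yy1 -0.12 (-0.32 to 0.08). Spi1, a myeloid factor, had 0.49 (-0.19 to 1.16), and Mlxipl, a carbohydrate sensor, -0.20 (-0.43 to 0.03). Esrrb, Esrrg and Nfkb1 lay between 0.00 and 0.04, with signs that changed when single mice were left out. The intervals of Ppargc1a and Spi1 include changes of more than 2-fold, so these data do not bound them tightly.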

How the data were processed

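Bulk RNA was sequenced from the gastrocnemius of 50 mice, 1 library per animal. The authors deposited counts and TPM per gene. Per the labels and the study's methods, poly(A) RNA was made into stranded paired-end libraries, trimmed with cutadapt 1.9.1 and assigned by kallisto 0.43.1 to protein-coding transcripts of GRCm38, a read that fits several transcripts being split evenly. The deposited counts are whole numbers with no normalization, and the deposited TPM values are scaled by transcript length and library by the authors.

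Counts were normalized by TMM and fitted with edgeR 4.0.16 (R 4.3.3; quasi-likelihood, 1 model over the 50 libraries with a term per age, adjusted p below 0.01), after a filter of 1 CPM in 8 libraries that kept 12586 of 23880 genes. SE is the absolute log2 fold change over the square root of F. Alternatives used DESeq2 1.42.0, limma 3.58.1 on log2(TPM + 1) and log2(TPM + 0.1), other scaling factors, the 2 ages alone and leaving out each mouse. Genes were named by rule where they passed the threshold with a mean of 5 CPM or more (up to 10 in each direction), as the 2 leading called members of a list, or as 1 of 10 fixed factors. The rule gave only Amy1, Kcnab1 and the factors, and every other gene was named after its values were seen. The comparison, lists and members were chosen with earlier results of these data known. Comparing 26 and 28 with 18 months, the threshold of 0.05 and the counts at an unadjusted p were chosen after the data were seen. Positions are from GENCODE vM21. Scripts were tested on simulated data. Intervals and depths cover counting error and the spread between mice of 1 cohort only.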

Additional observations from a re-analysis of the deposited data

Results flagged for a closer look

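The highest or lowest mouse of an age stood apart from the other 7 by Dixon's test in 14 of 198 groups (99 genes at 2 ages), and chance alone sets apart about 1 group in 20. At 8 months, replicate 3 held 5 of them. It was highest for Ndufs4 at 309 CPM (next mouse 216), Mrpl42 at 260.3 CPM (187), Mrpl47 at 28.1 CPM (21.4) and Ankrd1 at 20.3 CPM (11.1), and lowest for Col5a2 at 27.5 CPM (35.9). Also at 8 months, replicate 1 was highest for Fam174b at 7.39 CPM (4.16) and replicate 2 for Chrna1 at 22.1 CPM (18.2). At 22 months, replicate 6 was highest for Krt8 at 2.45 CPM (1.10) and Gdf5 at 2.40 CPM (0.593), and replicate 7 for Fasn at 109 CPM (56.0) and Elovl6 at 6.47 CPM (2.59). Replicate 4 was highest for Pck1 at 24.1 CPM (12.6). Replicate 5 was highest for Fcgr1 at 2.7 CPM (1.67) and lowest for Aldh1a1 at 166 CPM (225).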

How the results depend on the processing

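The count of genes past an adjusted p of 0.01 for 22 against 8 months, 5 with edgeR, was 14 with upper-quartile factors (14 higher), 34 with DESeq2, 34 with the likelihood ratio test, 12 with limma on log2(TPM + 0.1), 24 with the 2 ages fitted alone and 41 at an adjusted p of 0.05, and it ran from 1 to 12 when single mice were left out. For 18 against 8 months the count of 9 became 4 with limma at either pseudocount and 4 with the 2 ages alone. For 22 against 18 months the count of 1 became 2 with DESeq2 and 2 with the likelihood ratio test. For 24 against 18 months the count of 14 became 34, 38 and 25 with DESeq2, the likelihood ratio test and the 2 ages alone, and for 28 against 22 months 3485 became 1883 with the 2 ages alone. Members of the pathway lists past 0.01, 0 with edgeR, numbered 5 with DESeq2, 5 with the likelihood ratio test, 1 and 2 with limma (pseudocounts 1 and 0.1) and 4 with the 2 ages alone. The cause was not tested. When single mice were left out the log2 fold change ran from -0.0684 to 0.140 for Esrrb, from -0.0236 to 0.130 for Esrrg and from -0.0305 to 0.0235 for Nfkb1, so the sign of each turned. Mice that share a replicate number did not deviate together (correlations from -0.37 to 0.25), and with the replicate block the count for 22 against 8 months was 4, that for 22 against 18 months 2, that for 28 against 22 months 3451, and Nfkb1 had -0.000713. Of the 5 genes, the highest adjusted p (edgeR, DESeq2 or limma) over 25 alternatives was 0.00034 for Amy1, 0.022 for Gm7609, 0.022 for Prkcz, 0.028 for Emb and 0.027 for Kcnab1. Low counts limit Gm7609, Krt8, Jchain, Fcer1a, Csf3r, S100a8, S100a9, C6 and Gdf5.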
